A study of Mus musculus with 2 samples.

Results

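The genes described here mark the naive state of mouse embryonic stem cells, the self-renewing state that resembles the early epiblast before implantation. The 10 genes were chosen by symbol: Zfp42, Klf2, Klf4, Klf5, Esrrb, Tfcp2l1, Dppa3, Dppa5a, Tdh and Spp1. Each was found once among the 27998 genes listed for both libraries. Droplet single-cell libraries (10x Genomics) were compared, 1 of wild type AB2.2 cells and 1 of AB2.2 cells with a knockout of PHD2. Both cultures had been taken through 4 days of mesendoderm differentiation. AB2.2 is an embryonic stem cell line of the mouse, and PHD2 is the prolyl hydroxylase that marks hypoxia-inducible factor (HIF) for destruction when oxygen is present. The sources used here do not say whether the knockout cells were 1 clone or several. The question asked of these genes is at what level each culture held them. It was also asked whether they sat in the cells that carried T, the primitive streak gene also called brachyury.

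The naive network is held in place by leukaemia inhibitory factor (LIF), which acts through STAT3, and by low activity of the MEK and GSK3 kinases. Zfp42 (REX1) is the zinc-finger gene used most often to report the state. Klf2, Klf4, Klf5, Esrrb and Tfcp2l1 encode transcription factors of the network. Dppa3 (STELLA) and Dppa5a are germline and early embryo genes, Tdh encodes the mitochondrial threonine dehydrogenase on which mouse embryonic stem cells depend, and Spp1 encodes osteopontin, a secreted ligand of integrins. When cells leave the naive state these genes are switched off in turn, the general factors Pou5f1 and Sox2 remain, and a formative epiblast state precedes the germ layers.

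After filtering, 8515 wild type cells and 6927 knockout cells were kept, with medians of 20444 and 20999 unique molecular identifiers (UMIs) per cell. A level is the sum of a gene's UMIs in a library, scaled to the library's total in the usual CPM unit. All intervals are at 95% and cover counting error only. With 1 library per group there is no replicate check, so no test between wild type and knockout was made and no p-value is given. A gene counted as measured if its higher level was at least 5 CPM, and as higher or lower from 1.5-fold on. By that rule 998 of the 8538 measured genes (11.7%) were higher in the knockout and 201 (2.35%) were lower. With median-of-ratios size factors, which set the median gene near equality, 5.53% of 8470 genes were higher and 6.64% lower. Egln1, which encodes PHD2, was at 18.2 CPM in the wild type library and 13.7 CPM in the knockout library. The sources used here do not say which part of Egln1 was altered, so this level does not check the label. T was at 5.81 CPM in the wild type library and 318 CPM in the knockout library, a 54.7-fold difference (51.6 to 58.0). The libraries shared 22 cell barcodes, and leaving those cells out changed no call among the 10 genes.

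In sum over each library UMIs of all 10 naive genes were found, and their levels differed in both directions. No undifferentiated culture was among the libraries, so how much of a starting level was kept cannot be read here. Of the 10 genes 8 were measured. Of those Zfp42 and Klf4 were higher in the knockout library, Spp1 was lower, and Klf2, Klf5, Dppa3, Dppa5a and Tdh lay between. The median log2 ratio of the 8 genes was 0.22 (pseudocount 1 CPM), against 0.16 over all measured genes. Scaling by median-of-ratios size factors shifted the median of all genes to -0.08 and the median of the 8 naive genes to -0.003, and Zfp42 and Klf4 then lay under 1.5-fold.

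Sequence before the annotated start was available for 6 of the 10 genes, at 8 start sites (RefSeq, GRCm38.p6). The stretches below belong to the measured gene with the highest ratio (Zfp42), to the gene with the highest ratio of all 10 (Tfcp2l1) and to the gene with the lowest ratio (Spp1, the first 100 bases of the 250-base window before its second listed start, which lies inside the gene). They run 5′ to 3′ on the strand of the gene, and capitals mark matches to the motifs named after them.
Zfp42, chr8:43307010-43307259, minus strand: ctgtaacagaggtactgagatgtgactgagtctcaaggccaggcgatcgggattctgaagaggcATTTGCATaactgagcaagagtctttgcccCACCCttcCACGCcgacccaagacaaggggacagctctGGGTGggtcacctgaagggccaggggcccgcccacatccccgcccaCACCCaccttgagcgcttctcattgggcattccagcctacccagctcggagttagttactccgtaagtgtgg
Tfcp2l1, chr1:118627695-118627944, plus strand: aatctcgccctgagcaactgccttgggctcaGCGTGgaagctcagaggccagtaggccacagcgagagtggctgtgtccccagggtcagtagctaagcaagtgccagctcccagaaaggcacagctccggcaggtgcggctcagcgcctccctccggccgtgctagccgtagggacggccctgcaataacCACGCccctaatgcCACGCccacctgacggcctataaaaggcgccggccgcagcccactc
Spp1, chr5:104435942-104436041, plus strand: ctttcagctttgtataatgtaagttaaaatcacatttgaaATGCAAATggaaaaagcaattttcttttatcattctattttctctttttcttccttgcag
The motifs searched on both strands were the octamer ATTTGCAT bound by POU factors such as OCT4, the KLF box CACCC, the HIF cores ACGTG and GCGTG, the STAT motif TTCNNNGAA and the oestrogen-related receptor motif TCAAGGTCA. Of 32851 windows of 250 bases before a start, 1.601% held the octamer, 52.0% the KLF box, 16.6% ACGTG, 28.2% GCGTG, 7.02% the STAT motif and 0.387% the receptor motif. The Zfp42 stretch held 1 octamer, 3 KLF boxes and 1 GCGTG. The Tfcp2l1 stretch held 3 GCGTG and none of the other motifs. The Spp1 stretch held 1 octamer, and the window before the first Spp1 start held none of the motifs. OCT4 is known to act on Spp1 through an octamer element. A match describes letters in a window and does not show that a factor bound there.

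Zfp42 (ENSMUSG00000051176; mm10 chromosome 8, 43295063 to 43306980, minus strand) was at 20.9 CPM in the wild type library (20.3 to 21.6) and 34.3 CPM in the knockout library (33.3 to 35.2). It was 1.64-fold higher in the knockout (1.57 to 1.71), and 1.38-fold with median-of-ratios size factors. Klf4 (ENSMUSG00000003032; chromosome 4, 55527143 to 55532466, minus strand), a Krüppel-like factor downstream of STAT3, was at 3.83 and 5.77 CPM. Its ratio lay at the limit of 1.5, with an interval from 1.37 to 1.66. Klf2 (ENSMUSG00000055148; chromosome 8, 72319033 to 72321656, plus strand), the Krüppel-like factor that sustains the state when MEK is inhibited, was at 9.40 and 13.3 CPM and so 1.41-fold higher (1.33 to 1.503). Klf5 (ENSMUSG00000005148; chromosome 14, 99298691 to 99315036, plus strand), which also acts in trophectoderm and epithelia, gave 23.3 CPM in wild type cells and 27.3 in the knockout, 1.18-fold apart (1.13 to 1.23). The ratios of all 4 of these zinc-finger genes were above 1, and only that of Klf5 went under 1 with median-of-ratios size factors (0.991).

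Esrrb (ENSMUSG00000021255; chromosome 12, 86361117 to 86521628, plus strand), an orphan nuclear receptor that GSK3 inhibition induces, gave 90 UMIs in the wild type library and 149 in the knockout library, or 0.446 and 0.945 CPM. Tfcp2l1 (ENSMUSG00000026380; chromosome 1, 118627945 to 118685168, plus strand), a CP2-family factor that both LIF and MEK inhibition induce, gave 277 and 522 UMIs, or 1.37 and 3.31 CPM. Neither reached 5 CPM. Their plain ratios were 2.12 for Esrrb (1.62 to 2.78) and 2.41 for Tfcp2l1 (2.08 to 2.80). Among all 18786 genes with a UMI in both libraries 25% were at least 1.5-fold higher in the knockout and 7.9% lower.

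Dppa5a (ENSMUSG00000060461; chromosome 9, 78367052 to 78368177, minus strand), which encodes an RNA-binding KH-domain protein, gave 599 CPM in wild type cells and 594 in the knockout, with a ratio of 0.991 (0.982 to 0.999). Dppa3 (ENSMUSG00000046323; chromosome 6, 122626410 to 122630272, plus strand), which protects maternal DNA methylation after fertilization, gave 5.74 and 6.85 CPM, with a ratio of 1.19 (1.10 to 1.30). Tdh (ENSMUSG00000021953; chromosome 14, 63492347 to 63509092, minus strand) gave 43.6 and 32.3 CPM and so was 1.35-fold lower in the knockout (1.30 to 1.40). Scaled by size factors it was 1.602-fold lower, past the limit. The antisense gene Gm17232 overlaps Tdh, but it was at 0.00496 and 0.0127 CPM. Spp1 (ENSMUSG00000029304; chromosome 5, 104435118 to 104441050, plus strand) was at 35.5 CPM in the wild type library (34.7 to 36.4) and 15.5 CPM in the knockout library (14.9 to 16.1). It was 2.30-fold lower in the knockout (2.19 to 2.41).

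**Figure D1:**
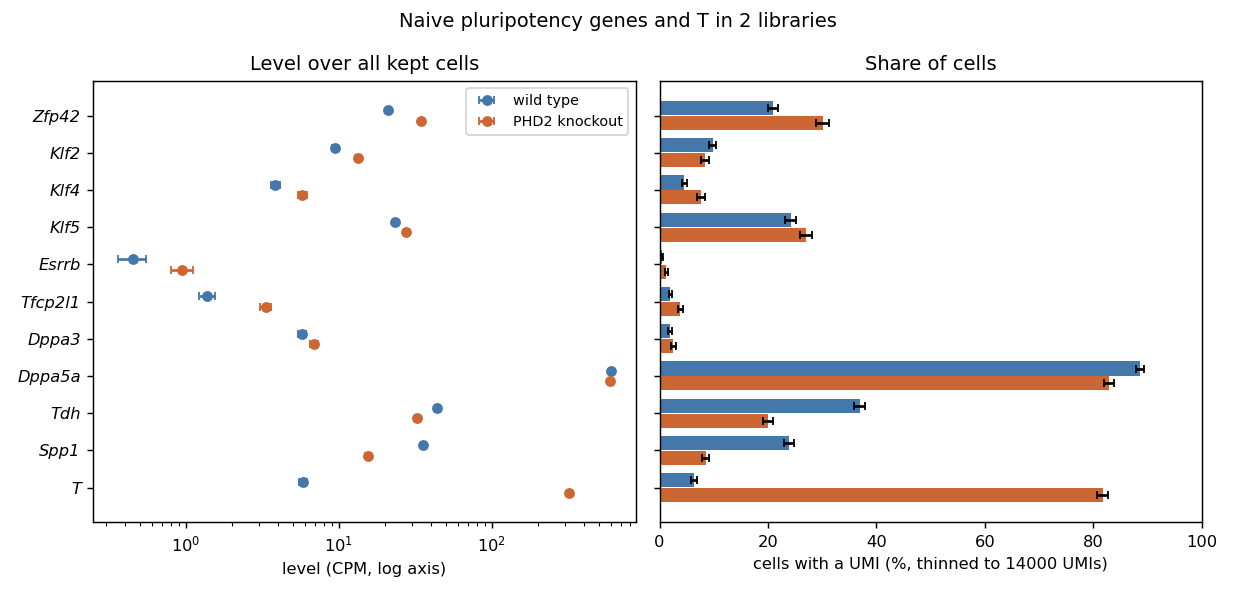
Level (left, CPM on a log axis, all kept cells) and share of cells with a UMI (right, percent of cells thinned to 14000 UMIs) of the 10 naive genes and T in the wild type (blue) and knockout (orange) library. Bars on points and columns are 95% counting intervals. The Dppa5a levels lie on each other (599 and 594 CPM), Spp1 is lower in the knockout by both measures, and Klf2 has a smaller share of cells in the knockout beside a higher level.

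Shares of cells depend on depth, so 14000 UMIs were drawn from each cell, leaving 7742 wild type and 6283 knockout cells. Shallower cells, 773 in the wild type and 644 in the knockout library, were left out. Zfp42 was found in 21.0% (20.1 to 21.9) of the wild type and 30.0% (28.9 to 31.2) of the knockout cells, and at full depth in 30.5% and 40.1%. Spp1 was found in 23.8% (22.9 to 24.8) and 8.48% (7.81 to 9.20), and at full depth in 31.2% and 11.4%. Tdh was found in 36.9% (35.8 to 37.96) and 19.99% (19.01 to 21.001), and at full depth in 47.6% and 25.2%. Both Tdh and Spp1 were thus carried by a smaller part of the knockout cells, whereas Zfp42 was carried by a larger part.

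Klf5 was found in 24.2% of wild type and 27.1% of knockout cells, and Klf4 in 4.53% and 7.61%. Dppa3 was found in 1.91% and 2.56%, Tfcp2l1 in 1.95% and 3.80% and Esrrb in 0.439% and 1.27%. Dppa5a was found in 88.5% and 82.8%. As a reference for RNA from other cells, the shares were taken in 635 knockout cells with UMIs of at least 3 of 6 nascent mesoderm genes (Mesp1, Cyp26a1, Gata6, Pmp22, Lefty2 and Msx2), whose median depth was 22351 UMIs against 21844 for all thinned knockout cells. Only 3 wild type cells met that rule, which gives no reference for that library. Klf4 was found in 8.35% of those mesoderm cells (6.31 to 10.8), which is not below its share of all knockout cells. Its signal thus cannot be told from background, and that limit holds for each Klf4 ratio given here. The shares in the mesoderm cells were 18.9% for Zfp42, 20% for Klf5 and 72.3% for Dppa5a, below those of all knockout cells but far from 0. For Tdh (3.62%), Klf2 (3.31%), Spp1 (1.26%), Tfcp2l1 (0.787%), Esrrb (0.315%) and Dppa3 (0.157%) they were lower by a wider margin. RNA that leaked from other cells and transcript that mesoderm cells still held cannot be told apart here.

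Klf2 and Tdh differed between libraries in how their UMIs were spread over cells. Klf2 UMIs occurred in 9.79% (9.14 to 10.5) of the wild type and 8.37% (7.70 to 9.08) of the knockout cells, although its level was higher in the knockout. Its positive cells held 1.39 UMIs on average in the wild type library and 2.05 in the knockout library. Cells with 5 or more Klf2 UMIs held 11.7% of all Klf2 UMIs in the wild type library (21 cells) and 34.6% in the knockout library (52 cells). For Tdh the same share was 13.8% (99 cells) and 38.8% (139 cells). For Zfp42 it was 12.9% (37 cells) and 23.2% (83 cells), and for Spp1 it was 26.3% (130 cells) and 38.9% (60 cells). For Klf2, Tdh and Zfp42 the knockout library had more such cells, and for Spp1 it had fewer. These cells were counted gene by gene, and whether they are the same cells was not tested. Klf5 and Klf4 were not concentrated in this way, with 0.294% and 3.18% of Klf5 UMIs and none of the Klf4 UMIs in such cells.

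**Figure D2:**
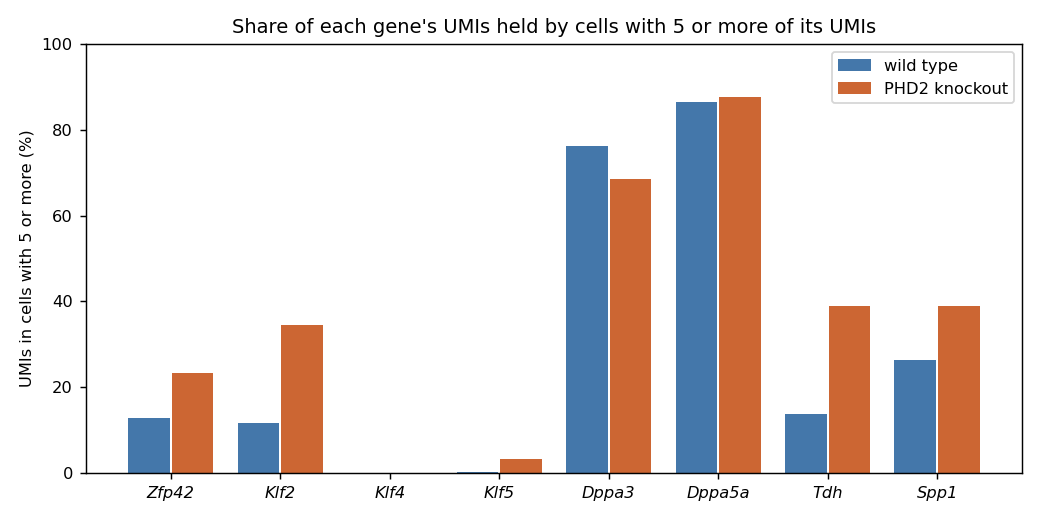
Percent of each gene's UMIs that lie in cells with 5 or more UMIs of that gene, in cells thinned to 14000 UMIs, for the 8 measured genes in the wild type (blue) and knockout (orange) library. The columns of Klf2 (11.7% and 34.6%) and Tdh (13.8% and 38.8%) differ most between the libraries, those of Dppa3 and Dppa5a are high in both, and Klf4 has no such cell.

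Dppa3 stood apart as a gene of a few cells in either library. In the wild type library 24 cells held 76.2% of its UMIs and in the knockout library 23 cells held 68.6%. The 2 richest cells alone held 23.8% and 28.6%, and the maximum was 97 UMIs in 1 wild type cell and 116 in 1 knockout cell. Leaving out cells with 5 or more Dppa3 UMIs left 1.43 and 2.20 CPM. The level of Dppa3 therefore rests largely on 24 and 23 cells. The same limit holds for each Dppa3 fold between classes of cells below, whose interval does not cover which cells those are. Genes of the 2-cell-like state, a rare state of embryonic stem cell cultures that recalls the 2-cell embryo, were summed over 9 markers in these cells. They were at 101 CPM in the wild type Dppa3-rich cells against 7.37 CPM in other wild type cells, and at 562 against 6.32 CPM in the knockout. Only 2 of the 24 and 2 of the 23 cells had 3 or more of these markers. The 11 knockout cells that had 3 or more of the markers held 29.3% of all knockout Dppa3 UMIs, and the 25 such wild type cells held 4.76%. Only 36.4% of those knockout cells and 24% of those wild type cells had a Dppa3 UMI. The 29.3% is close to the 28.6% held by the 2 richest knockout cells, so it describes few cells and not the class of 11. Of the 23 Dppa3-rich knockout cells 8 had a T UMI, as did 1 of the 24 wild type cells.

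The relation to T was examined next, because T marks cells that have entered the primitive streak programme. After thinning T was found in 6.35% (5.82 to 6.92) of the wild type and 81.7% (80.7 to 82.6) of the knockout cells, and at full depth in 10.1% and 86.2%. Knockout cells were sorted by their T UMIs into cells with 0 (1151 cells), 1 to 2 (1625), 3 to 5 (1523), 6 to 11 (1419) and 12 or more (565). Most naive genes were at their highest level in the knockout cells without T.

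The level of Spp1 was 37.6, 14.7, 6.57, 3.83 and 2.40 CPM over the 5 classes of increasing T. Dppa3 was at 16.9, 10.3, 3.38, 1.06 and 1.77 CPM. Klf2 was at 31.1, 14.8, 5.63, 3.93 and 5.18 CPM. All 3 genes were lower in each class than in the one before up to 6 to 11 T UMIs, and in the last 2 classes the intervals of each gene overlapped. Tdh was at 71.5, 36.7, 22.7, 12.1 and 11.9 CPM. Dppa5a was at 1124, 642, 407, 315 and 305 CPM. Zfp42 was at 56.8, 38.1, 26.7, 23.9 and 23.9 CPM, so its level in the T-rich cells was not below the 20.2 CPM of all thinned wild type cells. Esrrb was at 2.05 CPM without T and 0.253 CPM with 12 or more T UMIs, from 33 and 2 UMIs, and Tfcp2l1 was at 4.34 and 2.78 CPM. Klf5 did not follow, at 26.5, 25.5, 25.5, 26.8 and 31.4 CPM. Klf4 was at 7.57, 5.93, 5.44, 5.13 and 5.69 CPM, with intervals that overlap from each class to the next.

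**Figure D3:**
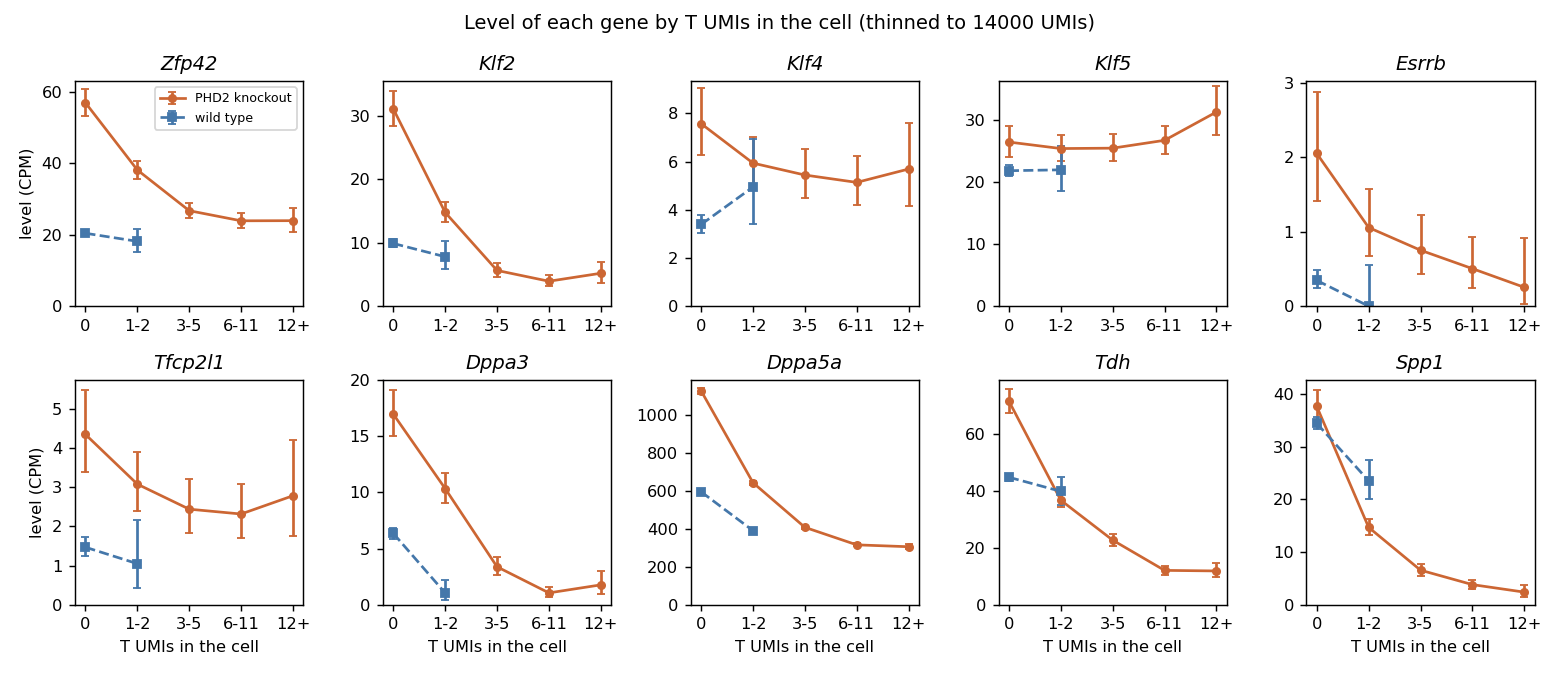
Level of each naive gene (CPM, axis from 0 and set per gene) by the number of T UMIs in the cell, in cells thinned to 14000 UMIs, for knockout cells in 5 classes (orange) and wild type cells with 0 or 1 to 2 T UMIs (blue). Bars are 95% counting intervals. Spp1, Klf2, Dppa3, Tdh, Dppa5a and Zfp42 are highest in knockout cells without T, and Klf5 is level.

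Between the 1151 knockout cells without T and the 1984 knockout cells with 6 or more T UMIs, 6 of the 8 measured naive genes were at least 1.5-fold higher in the cells without T and none was lower. Over all 8734 measured genes 3.89% were higher and 3.73% lower. The median log2 ratio was 2.16 for the naive genes and -0.02 for all genes. The folds were 13.4 for Dppa3 (9.43 to 19.7), 11 for Spp1 (8.84 to 13.8), 7.26 for Klf2 (5.93 to 8.94), 5.95 for Tdh (5.26 to 6.74), 3.60 for Dppa5a (3.51 to 3.69) and 2.38 for Zfp42 (2.15 to 2.64). The Dppa3 fold rests on few cells, since 23 Dppa3-rich cells held 68.6% of its knockout UMIs, and 8 of them had a T UMI. The ratio was 1.43 for Klf4 (1.12 to 1.83) and 0.944 for Klf5 (0.837 to 1.06). Both classes of cells came from 1 library, so these folds describe cells of that culture. Against all 5132 knockout cells with a T UMI the same 6 genes were higher and none lower, where 2.21% of all genes were higher and 1.83% lower. Not all pluripotency genes followed T in this way. Nanog, a naive factor that is also expressed in the streak, was at 37.4 CPM without T and 59.2 CPM with 12 or more T UMIs, and Pou5f1 was at 99.6 and 127 CPM. Sox2 was at 42.8 and 14.4 CPM.

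In wild type cells, with far fewer T UMIs, Dppa5a, Dppa3 and Spp1 were also at a higher level without T. The other naive genes did not differ there beyond counting error. Of the 7742 thinned wild type cells 492 had a T UMI and 15 had more than 2. Dppa5a was at 594 CPM in the 7250 cells without T and 388 CPM in cells with T, a ratio of 1.53 (1.47 to 1.59). Dppa3 was at 6.34 and 1.02 CPM, the latter from 7 UMIs, a ratio of 6.24 (3.01 to 15.6). That ratio rests on few cells, since the 24 Dppa3-rich cells held 76.2% of the UMIs and 1 of them had a T UMI, and its interval does not cover which cells those are. Those 2 of the 7 measured naive genes were at least 1.5-fold higher in cells without T, against 0.31% of all genes. None was lower, against 1.07%. Spp1 was at 34.4 and 24.0 CPM (ratio 1.44, 1.23 to 1.69). Zfp42, Klf2, Klf5 and Tdh had intervals of their ratio that include 1. So did Klf4, which was not measured there and whose ratio was below 1 (0.687, 0.482 to 1.008). A single T UMI in a wild type cell can come from free RNA, and its part in these ratios was not tested.

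Cells without T were then compared between the libraries. There 6 of the 8 measured naive genes were at least 1.5-fold higher in the knockout and none was lower, against 13.1% and 1.86% of all genes. Klf2 gave 9.88 CPM in the wild type and 31.1 CPM in the knockout class, 3.15-fold higher (2.82 to 3.51). Zfp42 was 2.79-fold higher (2.58 to 3.02), Dppa3 2.67-fold (2.31 to 3.08), Klf4 2.23-fold (1.80 to 2.75), Dppa5a 1.89-fold (1.86 to 1.93) and Tdh 1.597-fold (1.495 to 1.70). The Dppa3 fold again rests on few cells, and the Klf4 signal could not be told from background. Spp1, which was lower in the knockout over all cells, gave 34.4 and 37.6 CPM, 1.09-fold apart (1.001 to 1.19). At full depth, where fewer knockout cells are free of T (958, against 7659 wild type cells), the log2 ratio of Spp1 was 0.45. Its lower level over the whole knockout library was therefore not seen in the cells without T.

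The T-free cells were not alike in both libraries. Their share was 93.6% in the wild type and 18.3% in the knockout library, so the knockout class is a selected minority and the wild type class is nearly the whole culture. Of the knockout cells without T, 358 had a UMI of Mesp1, a gene of nascent mesoderm that is switched on after T. In the 793 knockout cells without T or Mesp1, Zfp42 was at 64.4 CPM, Klf2 at 38.4, Tdh at 86.9, Dppa3 at 20.7 and Dppa5a at 1311 CPM. Compared with the 7205 wild type cells without either, 7 of 9 measured naive genes were higher, against 13.9% of all genes, and none was lower, against 1.42%. Tfcp2l1 (1.47 and 5.40 CPM) was among the 7. Against knockout cells with 6 or more T UMIs 7 of 9 were also higher and none lower, where 4.55% and 4.17% of all genes were. In the 358 cells with Mesp1 the levels were lower, with Zfp42 at 40.1 CPM, Klf2 at 15.0, Tdh at 37.3 and Spp1 at 19.0 CPM. In the other direction, knockout cells with 6 or more T UMIs were set against wild type cells without T. Spp1 was 10.1-fold lower in them (8.20 to 12.5), Dppa3 5.04-fold, Tdh 3.72-fold, Klf2 2.31-fold and Dppa5a 1.90-fold, and Klf4 was 1.56-fold higher. Over all genes 3.85% were lower and 17.1% higher in that comparison.

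Co-expression was then described within cells. For each pair of genes the number of cells with UMIs of both was divided by the number the 2 shares would give if they were unrelated. Dppa5a was left out of the pair counts because it was found in most cells, which holds this ratio near 1. Among the 36 pairs of the other 9 genes the median ratio was 1.25 in the wild type library and 1.64 in the knockout library. It was above 1 for 31 and 35 pairs and above 2 for 6 and 14 pairs, and it was higher in the knockout library for 29 pairs. Its counting interval lay above 1 for 16 and 27 pairs. Pairs of other genes were not counted, so whether these values are particular to the naive genes was not tested. Cells of 1 library share its depth and free RNA, so these values are descriptions.

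Klf2, Esrrb and Dppa3 were each a partner in many of the high pairs. The highest knockout ratio was that of Esrrb with Dppa3, at 6.34 from 13 cells (3.38 to 10.8), while 0 wild type cells had both. Klf2 with Spp1 gave 225 wild type cells where 180 would be unrelated (1.25, 1.09 to 1.42) and 138 knockout cells where 44.6 would be (3.09, 2.60 to 3.65). Klf2 with Tdh gave ratios of 1.31 (1.18 to 1.45) and 2.39 (2.10 to 2.70). Klf2 with Dppa3 gave 3.11 (2.27 to 4.16) and 4.38 (3.33 to 5.65). Tdh with Spp1 were unrelated in the wild type library (0.981, 0.908 to 1.06) and shared cells in the knockout library (1.98, 1.72 to 2.27). Esrrb with Tfcp2l1 gave 7.54 from 5 wild type cells (2.45 to 17.6) and 4.27 from 13 knockout cells (2.27 to 7.31). Klf5 with Tdh went the other way in the wild type library (0.839, 0.772 to 0.910). The Pearson correlation of log UMIs over all 45 pairs ran from -0.07 to 0.29 in the wild type library and from -0.01 to 0.43 in the knockout library. The highest was Dppa5a with Tdh in both (0.29 and 0.43), followed in the knockout by Klf2 with Tdh (0.41).

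**Figure D4:**
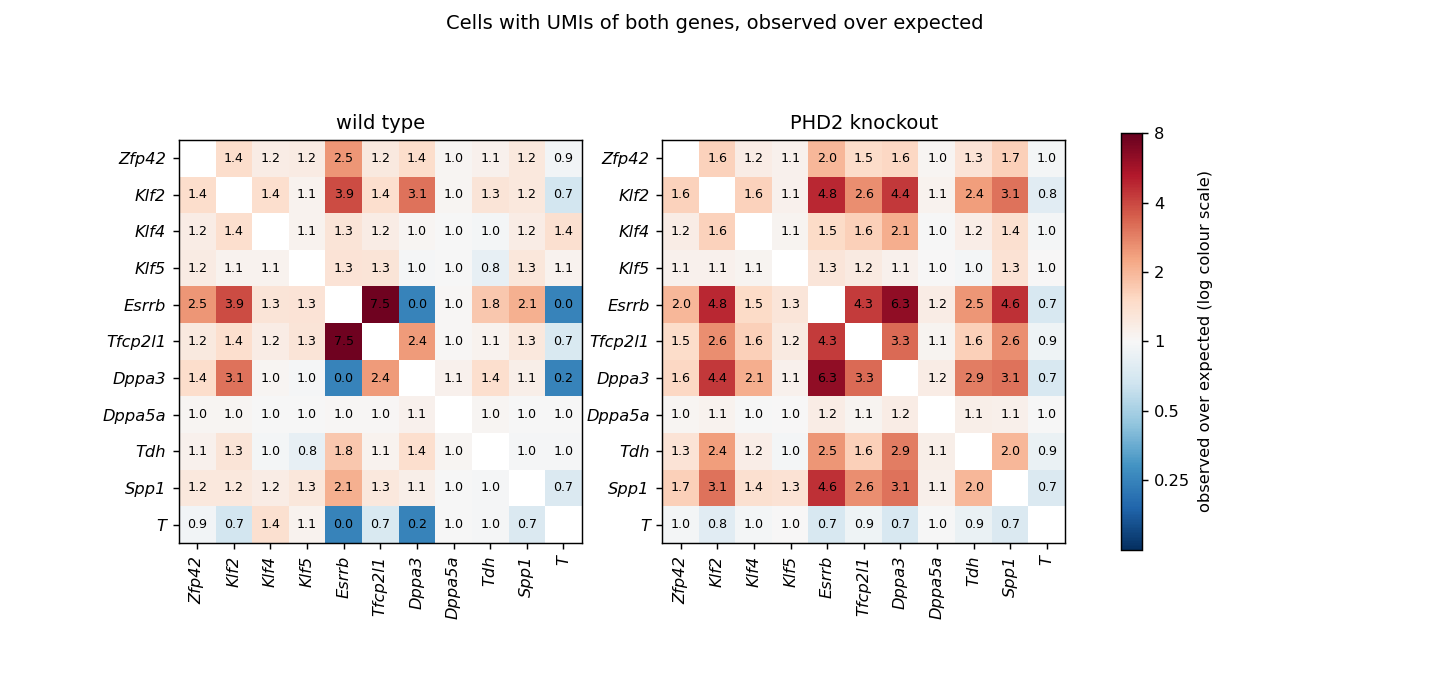
Observed over expected number of cells with UMIs of both genes for each pair of naive genes and T, in the wild type (left) and knockout (right) library, in cells thinned to 14000 UMIs. Colour is on a log scale that stops at 0.25 and 8, with red above 1 and blue below. The block of Klf2, Esrrb, Tfcp2l1, Dppa3, Tdh and Spp1 is redder in the knockout (Klf2 with Spp1 1.25 and 3.09), and the T row is at or below 1 for most genes.

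With T the ratio was below 1 for 8 of the 10 genes in the wild type library and for 9 in the knockout library. The same count was not made over all genes. In the wild type library the interval lay under 1 only for Klf2 (0.685), Dppa3 (0.213) and Spp1 (0.743). Zfp42 (0.950), Dppa5a (0.989) and Tdh (0.976) were near 1 there. In the knockout library it lay under 1 for Klf2, Esrrb, Dppa3, Tdh and Spp1. In knockout cells with a Spp1 UMI 60.2% had a T UMI (55.9 to 64.4), against 83.7% of other knockout cells. For Klf2 the shares were 64.6% and 83.2%, for Dppa3 58.4% and 82.3%, for Esrrb 58.8% and 82.0%, and for Tdh 71.7% and 84.2%. For Klf5 they were 81.9% and 81.6%. In wild type cells with a Dppa3 UMI 2 of 148 had a T UMI, and in those with a Spp1 UMI 4.72% (3.80 to 5.79) against 6.87% of the rest. Correlations with T ran from -0.05 to 0.02 in the wild type library and from -0.21 (Tdh) to 0.02 (Klf5) in the knockout library.

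Counting how many of the 9 genes a cell showed gave a graded picture in the knockout. T was found in 85.1% of knockout cells with none of them (83.5 to 86.5), 84.6% with 1, 79.0% with 2, 74.1% with 3, 53.6% with 4 (44.5 to 62.6) and 34.4% with 5 or more (24.9 to 45.0). Cells with 4 or more genes were rare in either library, at 204 wild type cells (2.63%, 2.29 to 3.02) and 218 knockout cells (3.47%, 3.03 to 3.95). Of these 3.92% and 45.4% had a T UMI, against 6.74% and 84.8% of cells with none or 1. At full depth, where deeper cells show more of every gene, the wild type order turned (14.6% against 9.22%), and the knockout order held (74.5% against 88.1%). UMIs of T and of 4 or more naive genes were found together in 99 knockout cells. T was abundant in this library and 919 of its cells held a single T UMI, and the part of free RNA in these counts was not tested. The level of T in knockout cells with 4 or more naive genes was 86.8 CPM, against 343 CPM in cells with none or 1. Dppa5a, which was not counted, was at 343 CPM in wild type cells with none of the 9 genes and 5967 CPM in those with 5 or more, and at 283 and 6793 CPM in the knockout. Mesp1 was found in 36.7% of knockout cells with none or 1 of the genes and 14.7% of those with 4 or more.

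**Figure D5:**
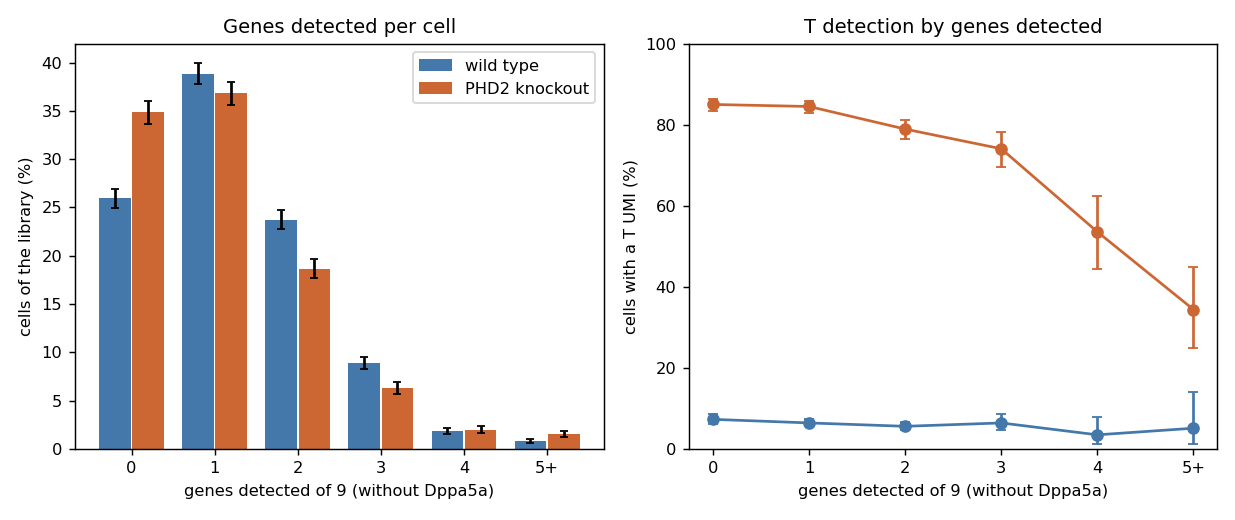
Left, percent of cells by the number of naive genes detected (of 9, without Dppa5a). Right, percent of those cells with a T UMI, in wild type (blue) and knockout (orange) cells thinned to 14000 UMIs. Bars are 95% counting intervals. In the knockout T was found in 85.1% of cells with no naive gene and 34.4% of cells with 5 or more, and in the wild type it ran from 3.45% to 7.27%.

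The genes that varied most like each naive gene were taken from 7359 genes at 5 CPM or more in both libraries, by the lower of the 2 Pearson correlations over thinned cells. Zfp42 and Klf2 had each other and Dppa5a in their first 3, with Mylpf, a myosin light chain gene, as the third (0.19 and 0.33 with Zfp42, 0.20 and 0.40 with Klf2). Mylpf also came first for Esrrb (0.14 and 0.17). Dppa5a was followed by the metallothionein genes Mt1 (0.34 in both libraries) and Mt2 (0.34 and 0.32) and by Triml2 (0.33 in both). Tdh had Dppa5a (0.29 and 0.43), Mt1 and Mt2. Dppa3 had Fthl17c (0.20 and 0.19), Fbxo15 and Dnmt3l, and Spp1 had Tmsb4x (0.23 and 0.19), Hspb1 and Cd9. Klf5 had other partners, Sfn (0.23 and 0.22), S100a6 and Tagln. The values for Klf4 (Jun, Pabpc1 and Malat1) were at most 0.06 and those for Tfcp2l1 (Hspb1, Fbxo15 and Cd9) at most 0.12, too weak to be a finding in counts this sparse. With 14000 UMIs per cell all of these correlations are held down by counting noise. Dppa5a and Tdh also differed with the share of UMIs from chromosome 8 described next, and its part in these correlations was not tested.

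Chromosome 8 gave a further split of the cells. In both libraries the share of UMIs from chromosome 8 had 2 modes, and 15.3% of wild type and 44.7% of knockout cells lay under 6.0%, a limit set after the values were seen. The share was computed without the naive genes, T and Egln1. All other genes of chromosome 8 stayed in it, including any partner gene named above that lies there. Whether genes that vary with the naive genes moved the share was not tested. The folds between the share classes are therefore descriptions. Of the kept cells 207 and 183 lay within 0.2 percentage points of the limit. Zfp42 and Klf2 lie on chromosome 8, and both were higher in cells of high share. Zfp42 was 1.70-fold higher in the wild type (1.48 to 1.97) and 2.03-fold in the knockout (1.88 to 2.20), and Klf2 was 1.75-fold and 1.93-fold higher. Genes on other chromosomes differed as well: Dppa5a by 2.17-fold and 1.70-fold, Tdh by 1.73-fold and 2.01-fold, and Dppa3 by 3.36-fold and 6.16-fold. Of the Dppa3-rich cells 2 of 24 in the wild type and 4 of 23 in the knockout had a low share. The Dppa3 folds thus rest on few cells. In all 5 of 7 measured naive genes were higher in wild type cells of high share and 6 of 8 in knockout cells, against 1.41% and 2.96% of all genes. None was past the limit in the lower direction, against 2.79% and 2.9%. Klf5 was at a ratio of 0.852 in the wild type (0.767 to 0.949) and 1.003 in the knockout, and Klf4 at 0.689, where it was not measured, and 0.983. Spp1 was 1.66-fold higher in knockout cells of high share (1.47 to 1.88) and at a ratio of 0.757 in wild type cells (0.697 to 0.822).

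The 2 libraries differ in how many cells have a low share, so the comparison of libraries was repeated within each class. In cells of low share Zfp42 was 1.72-fold higher in the knockout (1.48 to 2.01) and Spp1 4.33-fold lower (3.82 to 4.91), and the other measured naive genes lay between. At full depth 2 genes were higher there, with Klf2 at a log2 ratio of 0.57 against 0.38 after thinning. Over all genes 11.5% were higher and 4.03% lower there. In cells of high share Zfp42 was 2.06-fold higher (1.94 to 2.19), Klf4 1.80-fold, Dppa3 1.67-fold and Klf2 1.502-fold, and Spp1 was 1.97-fold lower (1.82 to 2.13), against 11.4% and 2.07% of all genes. The direction for Zfp42 and Spp1 was thus the same in both classes. The contrast of knockout cells without T against those with 6 or more T UMIs was also seen in both. Of 8 measured naive genes 6 were higher in cells of low share (4.6% of all genes) and 7 in cells of high share (4.57%), and none was lower (5.6% and 4.19%). Klf2 was 6.05-fold and 7.44-fold higher, Spp1 6.98-fold and 15.5-fold, and Tdh 5.30-fold and 5.83-fold.

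The surrounding pathways were read from gene lists. Over all measured genes 11.7% were higher in the knockout and 2.35% lower, with a median log2 ratio of 0.16. With median-of-ratios size factors these values were 5.53%, 6.64% and -0.08. Counts of 1 or 2 genes in a list are given as description only. LIF and STAT3 signalling, the input of the naive network, had 4 of 7 measured genes higher in the knockout and 1 lower, with a median log2 ratio of 0.69. Stat3 was at 5.38 and 11.01 CPM, its kinase gene Jak2 at 2.05 and 5.04 CPM and Jak1 at 14.9 and 24.8 CPM, while the STAT3 target Pim1 gave 23.2 and 13.3 CPM. Scaled by size factors 2 of 6 were higher and 1 lower (median 0.39). Of 13 other naive genes measured, Tbx3 was higher (0.868 and 12.9 CPM) and Fgf4 lower (9.86 and 3.75 CPM), and Trim28 was at 166 and 155 CPM. Their median of 0.15 changed to -0.08 with median-of-ratios size factors. Tbx3 is also a mesoderm gene. The factor Tcf7l1, which represses the naive network, was at 32.3 and 17.0 CPM, the 1 lower gene among 13 measured genes of exit from the naive state, where Dusp6 (22.5 and 44.6 CPM) and Gsk3b (28.4 and 48.3 CPM) were higher. The other KLF and SP genes had 1 of 9 higher, the Wnt-responsive Sp5 (8.84 and 75.7 CPM), and none lower.

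General pluripotency genes had 1 of 10 higher and 3 lower (median -0.22), with Utf1 at 423 and 103 CPM, Gdf3 at 35.8 and 10.1 CPM and Tdgf1 at 168 and 313 CPM. The list for the formative and primed states had 3 of 11 higher and 2 lower (median -0.04), with Lef1 at 13.3 and 41.5 CPM, Fgf5 at 10.3 and 22.1 CPM and Pou3f1 at 90.4 and 21.5 CPM. The genes around Tdh in threonine and folate metabolism had 0 of 11 past 1.5-fold, and Gcat, which acts right after TDH, gave 71.2 and 49.7 CPM. Scaled by size factors 2 of the 11 were lower. Of 6 measured osteopontin receptors and regulators of Spp1 only Sox2 was past the limit (38.4 and 25.1 CPM), and the integrin gene Itgb1 was at 128 and 118 CPM. Size factors moved the counts of the other lists as well, to 1 higher and 5 lower of 10 for general pluripotency, 2 and 4 of 12 for the formative list, 1 and 1 of 12 for exit from the naive state and 0 and 2 of 6 for the osteopontin list. The primitive streak list had 11 of 12 higher and none lower, with Mesp1 at 0.397 and 222 CPM.

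Markers of other cells were read in the cells rich in naive genes. In the 83 knockout cells with 5 or more Zfp42 UMIs the 12 nascent mesoderm markers summed to 43.9 CPM, against 364 CPM in other knockout cells, and neuroectoderm markers to 13.8 against 84.3 CPM. In the 52 Klf2-rich knockout cells mesoderm markers summed to 48.1 against 362 CPM. In the wild type, where these markers were low, the order was the other way, at 27.0 against 13.1 CPM in Zfp42-rich cells (2.07-fold, 1.13 to 3.48) and 30.6 against 13.1 CPM in Klf2-rich cells (2.34-fold, 1.07 to 4.45), from 14 and 9 UMIs. The 8 germ cell markers summed to 84.9 against 17.0 CPM in Zfp42-rich and 85.0 against 17.2 CPM in Klf2-rich wild type cells, and to 137 against 42.7 CPM in Dppa3-rich knockout cells. They were closer in Zfp42-rich knockout cells (70.6 against 42.6 CPM). In Spp1-rich cells they were not higher, at 13.7 against 17.4 CPM (wild type) and 42.9 against 43.0 CPM (knockout). Tfap2c, also on the trophoblast list, was at 25.1 against 0.844 CPM in Zfp42-rich wild type cells. The other germ cell markers there summed to 59.8 against 16.2 CPM. The list of 12 primitive and visceral endoderm markers was higher in most of these classes, 87.8 against 31.1 CPM in Zfp42-rich knockout cells and 190 against 18.2 CPM in Klf2-rich wild type cells. That difference was carried by Rhox5, an X-linked homeobox gene that embryonic stem cells also express, at 83.5 against 8.56 CPM and 180 against 6.12 CPM. The other markers of the list summed to 4.30 and 10.2 CPM in those cells. In Tdh-rich wild type cells the markers other than Rhox5 were at 43.3 against 11.7 CPM, and in Spp1-rich knockout cells the whole list was at 28.6 against 31.9 CPM. The part of such markers in the results was not tested. Over the whole libraries the feeder fibroblast list summed to 2.76 and 10.8 CPM, of which Cdh11 was 0.114 and 7.21 CPM, and Lum and Postn were listed at 0 in the knockout. The macrophage list summed to 4.51 and 6.37 CPM, nearly all of it Cd68.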

How the data were processed

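The authors deposited 1 filtered matrix of UMI counts per library, and per the file headers it was written by Cell Ranger 4.0.0. The genome mm10 and Seurat are named in the submitters' processing notes. Cells with at least 1000 genes and at most 10% mitochondrial UMIs were kept. Scrublet (scanpy 1.11.5) marked 0 and 2 cells as doublets by its own limit, which is too few to be a working call, so the cells with the highest scores were removed instead, at 0.8% per 1000 barcodes. Free RNA was not corrected. Counts were summed per library and scaled to CPM, with a pseudocount of 1 CPM for log2 ratios. Intervals at 95% are exact Poisson or Clopper-Pearson intervals and cover counting error only. For shares, T classes and co-expression each cell was thinned to 14000 UMIs, and the 773 wild type and 644 knockout cells below that were left out. Coordinates are from GENCODE M21. Scripts ran in Python 3.11.15 and were tested on simulated data. The genes named beside the 10 come from fixed lists, or are the 3 with the highest lower correlation. The 10 genes and the lists were chosen with earlier results of these data known.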

Additional observations from a re-analysis of the deposited data

Results flagged for a closer look

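Spp1 differed in direction between the libraries when cells were split by their share of UMIs from chromosome 8. In the wild type library its level in cells of high share was 0.757 times that in cells of low share (32.1 and 42.5 CPM). In the knockout library it was 1.66 times that level (16.3 and 9.80 CPM). The difference between the libraries was not tested, since each group has 1 library.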

How the results depend on the processing

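With 1 library per group these are values with no test, and the cause of each change was not tested. No paired analysis was possible because each group has 1 library. Of the 303 values recomputed for 43 results, 204 stayed within the set tolerance, 98 moved beyond it and 1 value called as higher or lower changed sign. This was Spp1, at a log2 ratio of 0.45 in cells without a T UMI. Genes under the limit changed sign too: Tdh in cells without T (0.85), Dppa3 in cells of low chromosome 8 share (-0.14), Klf5 with median-of-ratios size factors (-0.01) and Dppa5a, near 0 as reported, in cells of low (0.41) and high share (0.19), in cells without T (1.04) and with doublets removed at double the rate (0.01). Of the measured naive genes, 2 were higher and 1 lower as reported, against 11.7% and 2.35% of all genes. With median-of-ratios size factors 0 were higher and 2 lower, against 5.53% and 6.64% of all genes. In cells of high chromosome 8 share 5 of 8 measured genes were past the limit, 4 of them higher. In cells without a T UMI 7 of 9 measured genes were past it, 7 higher and 0 lower. Their median log2 ratio there was 1.04, against 0.15 over all genes. At full depth the share of all genes past the limit was not counted in these classes of cells. At a limit of 2-fold 1 was past it and 0 were higher, and the share of all genes past 2-fold was not counted. With no filter on low values 5 were past 1.5-fold and 4 higher. Of all genes with a UMI in both libraries 25% were higher and 7.9% lower. The share of cells with T depends on depth. Thinned to 8000 UMIs it was 4.58% (wild type) and 74.5% (knockout) in cells with none or 1 naive gene, and 31.0% in knockout cells with 4 or more. Not thinned, it was 9.22% and 88.1% in cells with none or 1, and 14.6% and 74.5% in cells with 4 or more. With no doublet removal it was 85.9% in knockout cells with none or 1. Leaving out shared barcodes and another random draw were chosen after seeing the data. Esrrb (90 and 149 UMIs) is limited by depth.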
